A study of Homo sapiens with 12 samples.

Results

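Integrins and laminins are the receptors and one of the main ligands through which epithelial cells hold on to a basement membrane. The genes were chosen by symbol: those of the integrin alpha and beta subunits and of the laminin alpha, beta and gamma chains. The count table lists 51838 genes, and 37 of them matched, 25 integrin subunits and 12 laminin chains. ITGB3 also has a name of this form and was not analysed here. HCC70 and MDA-MB-231, both human basal-like breast cancer cell lines, gave 12 libraries of polyA RNA. The groups were HCC70 and MDA-MB-231 cells kept for 4 h with 100 nM dexamethasone (DEX), and HCC70 and MDA-MB-231 cells kept for 4 h with ethanol, the vehicle, each with 3 libraries. The culture medium was RPMI for HCC70 but DMEM for MDA-MB-231, and an effect of the line cannot be told apart from one of the medium. Each group is 1 cell line, and nothing in the labels says that its libraries came from separate cultures. The p-values therefore reflect only how far these samples spread, and that spread may be technical.

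An integrin is a pair of 1 alpha and 1 beta subunit that crosses the plasma membrane, binds matrix outside the cell and ties it to the actin or keratin skeleton inside. A laminin is a cross-shaped protein of 1 alpha, 1 beta and 1 gamma chain, and laminins form the sheet of the basement membrane to which collagen, nidogen and perlecan are attached. In breast epithelium the basal cells rest on laminin through integrins of the beta-1 and beta-4 families, and those with beta-4 sit in hemidesmosomes. DEX is a synthetic glucocorticoid that activates the glucocorticoid receptor, a DNA-binding transcription factor.

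Total counts ran from 106345287 to 123218973 per library. Levels are given as CPM, counts scaled to library size with TMM factors, and differences as log2 fold changes with their standard errors from edgeR's quasi-likelihood test, with p-values adjusted by Benjamini-Hochberg over the 28141 genes tested and a threshold of 0.05. The treatment check was clear in both lines: FKBP5, a glucocorticoid target, had 218 CPM with DEX and 35.2 CPM in vehicle in HCC70, and 1119 CPM with DEX and 56.2 CPM in vehicle in MDA-MB-231. TSC22D3 and PER1, further targets, rose in both lines too, by 1.43 ± 0.07 and 2.87 ± 0.22 in HCC70 and by 4.85 ± 0.08 and 3.89 ± 0.22 in MDA-MB-231 (log2, SE), and NR3C1, the gene of the receptor itself, changed by -0.50 ± 0.06 in MDA-MB-231. Of the basal keratins, KRT5 stood at 2595 CPM in HCC70 vehicle and 0.804 CPM in MDA-MB-231 vehicle, where KRT14 and KRT17 were also at or under 1.28 CPM, so the defining keratins of basal cells were nearly absent from MDA-MB-231. Other basal markers did not part the lines in this way. EGFR stood at 328 CPM in HCC70 vehicle and 356 CPM in MDA-MB-231 vehicle, and TP63 was low in both, at 1.37 and 0.326 CPM. VIM, an intermediate filament of mesenchymal cells, stood at 145 CPM in HCC70 vehicle and 2212 CPM in MDA-MB-231 vehicle. Replicate libraries were not alike. In MDA-MB-231, DEX library 2 and vehicle library 1 stood apart from the others of their groups, and levels of GC-rich genes went up and down together from library to library. The Spearman correlation between GC content and a gene's deviation from its line's mean, over 16560 genes, was 0.50, 0.37 and 0.34 in the HCC70 DEX libraries and -0.60, -0.32 and -0.14 in the HCC70 vehicle libraries. In MDA-MB-231 it was -0.53, 0.25 and -0.50 with DEX and 0.68, 0.17 and -0.23 in vehicle. The trend thus ran with treatment in HCC70 and, with exceptions, against it in MDA-MB-231, and its values are given beside the GC-rich members it touches.

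Of the 37 genes, 33 passed the filter on low counts. ITGA8, ITGA11, ITGAL and LAMC3 did not pass, with 0 to 11 counts in any library. The highest group means were 0.0131 CPM for ITGA8 and 0.0418 CPM for ITGA11, both in MDA-MB-231 DEX, 0.04 CPM for ITGAL in HCC70 vehicle and 0.00898 CPM for LAMC3 in HCC70 DEX. The floor set by a count of 0, taken as 3 counts summed over a group, equals 0.00898 CPM in HCC70 DEX, 0.00865 CPM in HCC70 vehicle, 0.00782 CPM in MDA-MB-231 DEX and 0.00829 CPM in MDA-MB-231 vehicle, which covers counting error only.

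In MDA-MB-231, DEX was followed by more mRNA of 2 alpha subunits, ITGA5 and ITGA10, and by less of ITGA2, LAMB3 and ITGA3. ITGA5 is the alpha subunit of the fibronectin receptor, ITGA10 and ITGA2 are alpha subunits of collagen receptors, ITGA3 is the alpha subunit of a laminin receptor, and LAMB3 is the beta chain of the laminin of hemidesmosomes. These were 5 of the 33 tested members, 2 up and 3 down, against 14.6% of all tested genes called (6.65% up and 7.96% down). The share of members called, 15.2%, was thus close to the background. The median log2 fold change was -0.11 over the members and -0.01 over all tested genes.

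ITGA5 had 642.5, 819 and 719 CPM in the 3 MDA-MB-231 DEX libraries, against 312.5, 278 and 251 CPM in the 3 vehicle libraries. Every DEX library stood far above every vehicle library. This was a log2 fold change of 1.37 ± 0.09 (SE, n = 3 each, adjusted p = 1.75e-07 in edgeR's test), a 2.59-fold rise. ITGA10 had 12.9, 16.2 and 14.2 CPM with DEX and 2.56, 3.32 and 2.86 CPM in vehicle. The groups were again far apart, at a level that per kb of exon was low beside ITGA5, 2.29 CPM per kb for ITGA10 and 95.9 CPM per kb for ITGA5 with DEX. Its log2 fold change was 2.31 ± 0.16 (SE, n = 3 each, adjusted p = 2.64e-07 in edgeR's test), a 4.95-fold rise and the largest among the tested members in that comparison. A rise of a transcript in bulk RNA can come from more cells that express it or from more RNA per cell, which cannot be told apart here, and the same holds for every fall.

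ITGA2 had 79.5, 75.9 and 80.6 CPM with DEX and 109, 132 and 137 CPM in vehicle in MDA-MB-231. All 3 DEX libraries lay close to each other and below all 3 vehicle libraries. On the log2 scale the change was -0.68 ± 0.08 (SE, n = 3 each, adjusted p = 3.66e-05 in edgeR's test). The calls of ITGA5, ITGA10 and ITGA2 held in each of the 19 alternatives run, which included leaving out each library in turn.

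LAMB3 had 285, 390 and 307 CPM with DEX and 655, 512 and 423 CPM in vehicle. The groups did not overlap, and the highest DEX library was library 2 and the highest vehicle library was library 1, the libraries of those groups in which GC-rich genes were highest (the exons of LAMB3 are 59.4% GC, against a median of 48.4% over tested genes). Its log2 fold change was -0.70 ± 0.15 (SE, n = 3 each, adjusted p = 0.011 in edgeR's test), and -0.48 with an offset for GC content and length. The adjusted p became 0.0516 without DEX library 1 and 0.0948 with the MDA-MB-231 libraries fitted on their own, and ranged from 5.78e-05 to 0.0948 over the alternatives. ITGA3, the most abundant integrin gene of this line (59.1% GC), had 1466, 1970 and 1597 CPM with DEX and 2559, 2129 and 1878 CPM in vehicle. The groups overlapped, since DEX library 2 was above vehicle library 3. Its log2 fold change was -0.38 ± 0.12 (SE, n = 3 each, adjusted p = 0.043 in edgeR's test), and the call was lost in 7 of the 19 alternatives, with an adjusted p of 0.175 without DEX library 1, 0.147 without DEX library 3, 0.141 without vehicle library 1 and 0.0844 without vehicle library 2. With the GC and length offset the log2 fold change of ITGA3 was -0.15, with an adjusted p of 0.0137. Over its alternatives the adjusted p ranged from 0.0032 to 0.187.

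**Figure D1:**
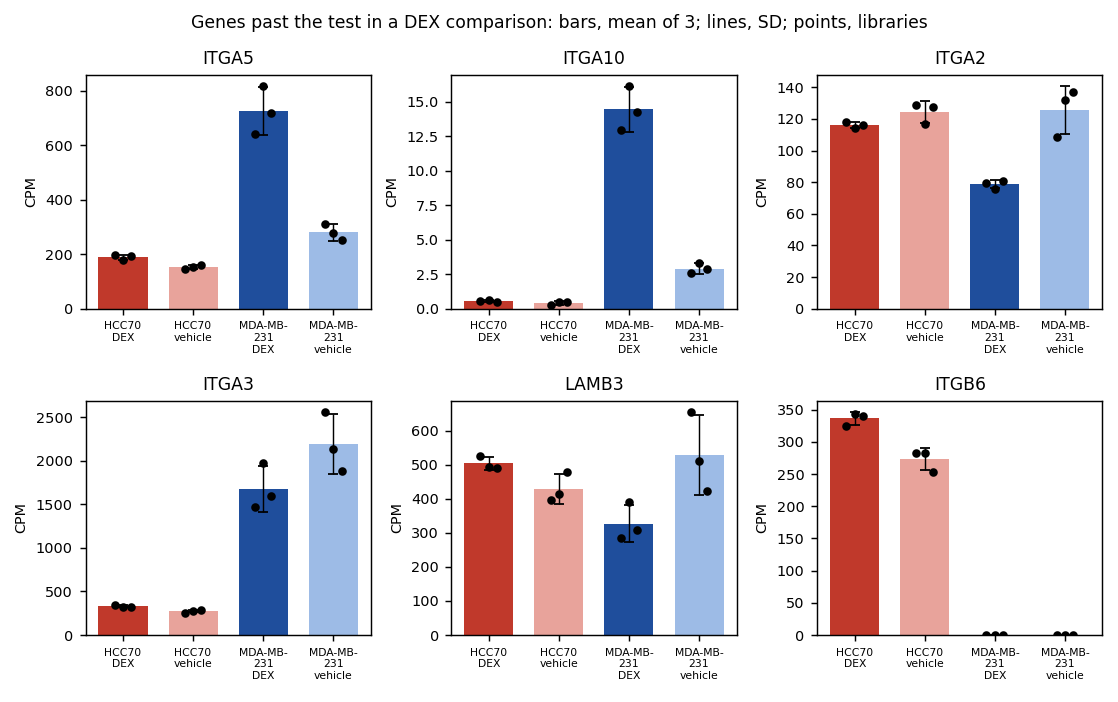
CPM of the 6 genes that passed the test in a DEX comparison, with DEX left of vehicle in each line. Bars are means of 3 libraries, lines are SDs and points are libraries. ITGA5 and ITGA10 rise in MDA-MB-231, where ITGA2 falls, and ITGB6 is near 0 in MDA-MB-231.

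Promoters are printed for ITGA5, ITGA10, ITGA2 and LAMB3, all called with DEX in MDA-MB-231. Sequence near the gene start can thus be read beside the response. The calls of the first 3 held throughout, and that of LAMB3 was lost in 2 of 19 alternatives. The promoter of ITGB6, called in HCC70 only, is not printed. Printed promoters are RefSeq sequences of build GRCh38.p14, 250 bases before to 50 bases after the gene start, read along the gene's strand. ITGA5 is at chr12:54419217-54419516 on the minus strand, ITGA10 at chr1:145910001-145910300 on the minus strand, ITGA2 at chr5:52989102-52989401 on the plus strand and LAMB3 at chr1:209652376-209652675 on the minus strand. Capitals mark matches to 4 motifs searched on both strands: AGAACA, one arm of the site bound by the glucocorticoid receptor, the full palindromic glucocorticoid response element in a loose form, TGANTCA, bound by FOS and JUN proteins, and TTCNNNGAA, bound by STAT proteins.
ITGA5: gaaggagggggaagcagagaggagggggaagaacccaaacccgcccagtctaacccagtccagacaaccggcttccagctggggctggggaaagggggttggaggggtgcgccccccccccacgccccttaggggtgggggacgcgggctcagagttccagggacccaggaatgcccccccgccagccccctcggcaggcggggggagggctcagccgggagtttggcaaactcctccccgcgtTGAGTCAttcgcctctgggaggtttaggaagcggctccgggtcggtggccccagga
ITGA10: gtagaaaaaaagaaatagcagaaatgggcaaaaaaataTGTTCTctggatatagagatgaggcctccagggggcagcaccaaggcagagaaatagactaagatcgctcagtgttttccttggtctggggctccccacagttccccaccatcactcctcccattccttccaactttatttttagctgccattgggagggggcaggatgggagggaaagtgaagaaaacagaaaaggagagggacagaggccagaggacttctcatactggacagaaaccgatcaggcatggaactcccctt
ITGA2: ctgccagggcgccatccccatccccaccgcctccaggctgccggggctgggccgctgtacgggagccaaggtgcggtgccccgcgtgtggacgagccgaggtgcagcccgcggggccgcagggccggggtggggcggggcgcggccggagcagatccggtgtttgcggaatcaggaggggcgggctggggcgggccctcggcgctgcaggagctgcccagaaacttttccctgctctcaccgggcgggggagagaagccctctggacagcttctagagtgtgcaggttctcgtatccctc
LAMB3: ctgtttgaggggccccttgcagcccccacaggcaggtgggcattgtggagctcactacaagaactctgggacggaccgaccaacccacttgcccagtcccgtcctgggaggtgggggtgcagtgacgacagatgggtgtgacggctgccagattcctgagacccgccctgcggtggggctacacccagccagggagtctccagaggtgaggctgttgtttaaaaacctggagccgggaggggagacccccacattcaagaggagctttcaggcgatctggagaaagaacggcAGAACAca

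The ITGA5 promoter held TGAGTCA at bases 245 to 251, overlapping the gene start at base 251. The ITGA10 promoter held the arm AGAACA on the opposite strand, read as TGTTCT, at bases 39 to 44, and LAMB3 held it at bases 293 to 298. The ITGA2 promoter held none of the 4 motifs. Over 27305 promoters of the same length AGAACA was found in 14.9%, the palindrome in 0.388%, the FOS and JUN motif in 7.76% and the STAT motif in 7.88%. Among the 26 members with a promoter in the table, these motifs were found in 4, 0, 2 and 2. AGAACA was in ITGA6, ITGA10, ITGB6 and LAMB3, the FOS and JUN motif in ITGA5 and LAMA3, and the STAT motif in ITGAE and LAMB2. ITGA3 was not among them.

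The other integrin and laminin genes of MDA-MB-231 did not pass the test with DEX. ITGB1, the beta subunit shared by the receptors for collagen, laminin and fibronectin, had 921, 839 and 901 CPM with DEX and 719, 819 and 814 CPM in vehicle. The groups did not overlap, and the log2 fold change was 0.18 ± 0.06 (SE, n = 3 each, adjusted p = 0.0791 in edgeR's test). ITGA6, which pairs with ITGB1 or ITGB4 to bind laminin, averaged 459 ± 26.6 CPM with DEX and 461 ± 53.1 CPM in vehicle (SD, n = 3 each), with a 95% interval of the log2 fold change from -0.17 to 0.16. LAMA3, the alpha chain that pairs with LAMB3, had a log2 fold change of -0.10 (95% interval -0.23 to 0.02). LAMA5, the alpha chain of the laminin found in most adult epithelia and the most GC-rich member at 65.3%, had 363, 953 and 457 CPM with DEX and 1534, 830 and 611 CPM in vehicle. The groups overlapped, and the 6 libraries ranked by LAMA5 in the same order as by their GC trend. Its log2 fold change was -0.75 ± 0.40 (adjusted p = 0.241), -0.21 with the GC and length offset (adjusted p = 0.545) and -0.80 without both libraries that stand apart (adjusted p = 0.0198), and the adjusted p ranged from 0.0198 to 0.695 over the alternatives. All 3 DEX libraries were above all 3 vehicle libraries for 5 of 33 members, against 13.9% of all tested genes, and below them for 4, against 13.3%.

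In HCC70, ITGB6 was the single member that passed the test with DEX. ITGB6 is the beta subunit of an epithelial alpha-v integrin that binds the latent form of TGF-beta. It had 325, 344 and 340 CPM with DEX and 283, 282.6 and 254 CPM in vehicle. All DEX libraries were above all vehicle libraries. The change was 0.30 ± 0.08 on the log2 scale (SE, n = 3 each, adjusted p = 0.0429 in edgeR's test), a 1.23-fold rise. This call was lost when any one of the 6 HCC70 libraries was left out, with adjusted p from 0.103 to 0.166, and in 10 of 19 alternatives, over which it ranged from 5.96e-05 to 0.193. In the annotation used, 20.6% of its exon bases overlap a non-coding gene, AC092153.1. One of 33 members called is 3.03%, against 3.96% of all tested genes (2.55% up and 1.4% down). None fell. At an unadjusted p under 0.05 edgeR's test had 1 member lower (ITGA9) and 10 higher, while the DESeq2 Wald test and limma voom had 0 and 1 lower, and neither called a fall. For such unadjusted counts, here and in the lists below, the share of all tested genes was not worked out. They therefore have no background to be read against.

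Many other members lay slightly higher with DEX in HCC70 without passing the test. All 3 DEX libraries were above all 3 vehicle libraries for 12 of the 33 members, against 17.1% of all tested genes, and below them for 1 member, against 15.3%. The median log2 fold change was 0.11 over the members and -0.01 over all tested genes. ITGA5 had 197, 179 and 193 CPM with DEX and 144, 153 and 159 CPM in vehicle. The log2 fold change of 0.32 ± 0.09 had an adjusted p of 0.0802 in edgeR's test (SE, n = 3 each), and from 0.00052 to 0.294 over its alternatives. ITGB8, the beta subunit of another alpha-v integrin that binds latent TGF-beta, had a log2 fold change of 0.25 (adjusted p = 0.117). ITGA1, the alpha subunit of a collagen receptor, had 0.27 (adjusted p = 0.139).

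The widest differences with DEX in HCC70 among abundant members were in GC-rich genes. LAMA5 had 2037, 1754 and 1689 CPM with DEX and 1065, 1178 and 1416 CPM in vehicle. ITGB4, the hemidesmosome subunit that pairs with ITGA6 (62.9% GC), had 414, 362 and 371 CPM with DEX and 246, 262 and 287 CPM in vehicle. Neither passed, at log2 fold changes of 0.58 ± 0.40 (adjusted p = 0.471) and 0.53 ± 0.23 (adjusted p = 0.266) in edgeR's test (SE, n = 3 each). With the GC and length offset LAMA5 was at 0.21 and ITGB4 at 0.24, neither past the test. Both passed with the HCC70 libraries fitted on their own (adjusted p = 0.00902 for LAMA5 and 5.87e-05 for ITGB4) and without both MDA-MB-231 libraries that stand apart (0.0418 and 0.00684), and over all alternatives the adjusted p reached 0.722 and 0.547. Over 16560 genes the log2 fold change of DEX and GC content had a Spearman correlation of 0.48 in HCC70 and -0.44 in MDA-MB-231, a description in which genes share their libraries. The part of the GC trend in these members' differences was not tested beyond the offset.

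**Figure D2:**
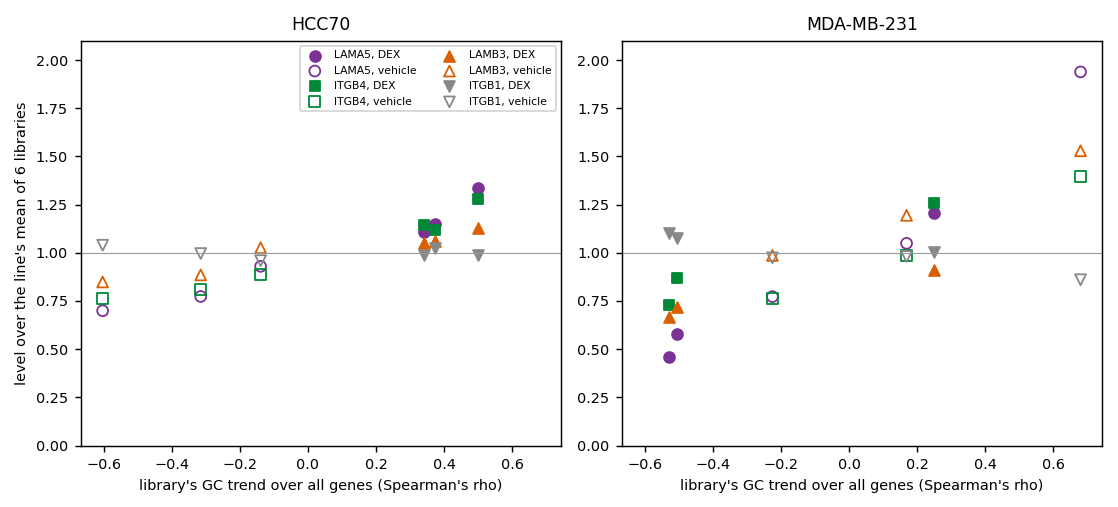
Level of LAMA5, ITGB4, LAMB3 and ITGB1 in each library, divided by its mean over the 6 libraries of the line, against the library's GC trend (Spearman correlation over 16560 genes). Filled points are DEX, open points vehicle. LAMA5 and ITGB4, the GC-rich members, follow the trend in both lines, and ITGB1, at 40.9% GC, stays closer to 1.

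The remaining members reported here that passed the filter are given as group means over 3 libraries with SD. ITGAV stood at 214 ± 7.50 CPM with DEX and 212 ± 6.07 CPM in vehicle in HCC70, and at 119 ± 4.52 CPM with DEX and 110 ± 9.52 CPM in vehicle in MDA-MB-231. ITGB5 stood at 315 ± 10.8 CPM with DEX and 276.5 ± 12.4 CPM in vehicle in HCC70, and at 191 ± 11.4 CPM with DEX and 207 ± 28.3 CPM in vehicle in MDA-MB-231. ITGB8 stood at 45.5 ± 0.50 CPM with DEX and 38.3 ± 1.00 CPM in vehicle in HCC70, and at 1.86 ± 0.23 CPM with DEX and 1.70 ± 0.22 CPM in vehicle in MDA-MB-231. In edgeR's test on all 12 libraries the alpha-v group other than ITGB6 thus did not pass with DEX in either line. In HCC70, ITGB8 passed in 5 of 19 alternatives and ITGB5 in 1. ITGB1 had 1140 ± 24.7 CPM with DEX and 1135 ± 45.2 CPM in vehicle in HCC70. ITGA6 had 71.3 ± 1.10 CPM with DEX and 63.1 ± 2.28 CPM in vehicle in HCC70. ITGA7 had 11.6 ± 0.63 CPM with DEX and 10.1 ± 2.24 CPM in vehicle in HCC70, and 0.883 ± 0.23 CPM with DEX and 1.39 ± 0.55 CPM in vehicle in MDA-MB-231. The laminin receptor subunits of HCC70 had higher means with DEX, none past edgeR's test on all 12 libraries, and ITGB1 was nearly level. ITGA3, ITGA7 (59.4% GC) and ITGB4 are GC-rich, with log2 fold changes of 0.27, 0.21 and 0.53 there. With the GC and length offset these were 0.085, 0.035 and 0.24. ITGA6 passed in 4 of 19 alternatives, the offset among them at 0.25 (adjusted p = 0.00122 in edgeR's test). ITGA3 and ITGB4 passed in 2 each. In MDA-MB-231, ITGB4 had 584 ± 168 CPM with DEX and 643 ± 198 CPM in vehicle. ITGA1 had 12.75 ± 0.42 CPM with DEX and 10.6 ± 0.97 CPM in vehicle in HCC70, and 8.88 ± 0.53 CPM with DEX and 7.76 ± 0.86 CPM in vehicle in MDA-MB-231. The 2 means of ITGA1 with DEX were both above vehicle, without passing edgeR's test on all 12 libraries in either line. In HCC70 it passed in 4 of 19 alternatives, the GC and length offset among them at 0.33 (adjusted p = 0.00695 in edgeR's test).

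Among the laminin chains, LAMA3 had 156 ± 3.95 CPM with DEX and 156 ± 0.78 CPM in vehicle in HCC70, and 70.7 ± 4.38 CPM with DEX and 76.0 ± 1.99 CPM in vehicle in MDA-MB-231. LAMB1 had 25.4 ± 0.73 CPM with DEX and 24.97 ± 0.89 CPM in vehicle in HCC70, and 142 ± 1.79 CPM with DEX and 154 ± 5.42 CPM in vehicle in MDA-MB-231. In both lines these differences were small, and none passed edgeR's test on all 12 libraries. LAMB1 passed in MDA-MB-231 in 1 of 19 alternatives, the GC and length offset, at -0.12 (adjusted p = 0.0432 in edgeR's test). LAMC1 had 383 ± 13.9 CPM with DEX and 353 ± 3.83 CPM in vehicle in HCC70, and 264 ± 10.2 CPM with DEX and 272 ± 7.35 CPM in vehicle in MDA-MB-231. LAMB2, a beta chain that can take the place of LAMB1 (59.9% GC), had 442 ± 15.0 CPM with DEX and 352 ± 28.3 CPM in vehicle in HCC70. In MDA-MB-231 it had 390 ± 72.1 CPM with DEX and 426 ± 74.2 CPM in vehicle. With DEX in HCC70, LAMC1 passed in 1 of 19 alternatives, the GC and length offset, at 0.14 (adjusted p = 0.0265 in edgeR's test). LAMB2 passed there in 2, and was at 0.13 with the offset, not past the test. LAMA4, a chain of vessel walls, had 5.12 ± 0.40 CPM with DEX and 4.91 ± 0.10 CPM in vehicle in HCC70, and 2.502 ± 0.22 CPM with DEX and 2.56 ± 0.24 CPM in vehicle in MDA-MB-231.

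The members of lower level named next did not pass with DEX in either line. In HCC70 the means with DEX and in vehicle were 4.26 and 4.05 CPM for ITGA2B, 2.52 and 2.79 CPM for ITGAE, 1.98 and 1.83 CPM for ITGA4, 1.96 and 2.22 CPM for ITGB7, 0.377 and 0.327 CPM for LAMA2, 0.303 and 0.382 CPM for ITGB2 and 0.102 and 0.17 CPM for ITGA9. In MDA-MB-231 they were 8.93 and 7.79 CPM for ITGAE, 5.12 and 6.54 CPM for ITGB2, 1.496 and 1.035 CPM for LAMA1, 0.883 and 0.578 CPM for LAMA2, 0.464 and 0.555 CPM for ITGB7, 0.267 and 0.288 CPM for ITGA9, 0.239 and 0.388 CPM for ITGA2B, 0.104 and 0.114 CPM for LAMB4 and 0.0343 and 0.0247 CPM for ITGA4. ITGB6 in MDA-MB-231 had 0.0995, 0.0808 and 0.139 CPM with DEX. LAMA1 had no count in the HCC70 DEX libraries and LAMB4 had 1.

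The responses of the lines were compared as the HCC70 log2 fold change minus that of MDA-MB-231. It passed the test for 5 of 33 members, 3 positive and 2 negative, against 12.1% of all tested genes (6.96% positive and 5.09% negative). The difference was -1.86 ± 0.29 for ITGA10 (adjusted p = 0.00115 in edgeR's test, SE) and -1.05 ± 0.13 for ITGA5 (adjusted p = 0.00016). ITGA10 had 0.545, 0.618 and 0.464 CPM with DEX and 0.235, 0.495 and 0.464 CPM in vehicle in HCC70, on 28 to 68 counts. Those groups overlapped, so the rise of MDA-MB-231 had no counterpart past the test in HCC70, where the 95% interval of its log2 fold change ran from -0.07 to 0.97.

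For ITGA2 the difference of the responses was 0.58 ± 0.11 (adjusted p = 0.00465 in edgeR's test, SE). ITGA2 had 118, 114 and 116 CPM with DEX and 129, 117 and 128 CPM in vehicle in HCC70, and the groups overlapped. LAMB3 and ITGA3 differed by 0.93 ± 0.22 (adjusted p = 0.0206) and 0.66 ± 0.16 (adjusted p = 0.0232). In HCC70 both lay higher with DEX without passing the test, at 0.23 ± 0.15 and 0.27 ± 0.12. These HCC70 values were 0.071 and 0.085 with the GC and length offset (adjusted p = 0.593 and 0.248 in edgeR's test). Both differences are in GC-rich genes and lost the call in 6 of 24 alternatives, including when HCC70 vehicle library 1 or 2 or MDA-MB-231 DEX library 1 or 3 was left out (adjusted p from 0.0524 to 0.0705). With the GC and length offset they were 0.55 and 0.24, both past the test (adjusted p = 0.001 and 0.0113). ITGA5, ITGA10 and ITGA2 kept the call in all 24.

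In vehicle the lines carried different sets of integrins and laminins. HCC70 was higher for the alpha-v group and its partners and for LAMA3, and MDA-MB-231 was higher for the laminin receptor subunits ITGA3, ITGA6 and ITGB4, for ITGA5, ITGA10 and ITGB2 and for LAMB1. Of 33 members, 26 passed the test, 14 higher and 12 lower in HCC70, against 79.2% of all tested genes (39.2% higher and 40% lower). The share of members called, 78.8%, was close to the background, and all 26 calls held wherever the gene was tested over the 19 alternatives. The median log2 difference was -0.27 over the members and -0.03 over all tested genes.

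**Figure D3:**
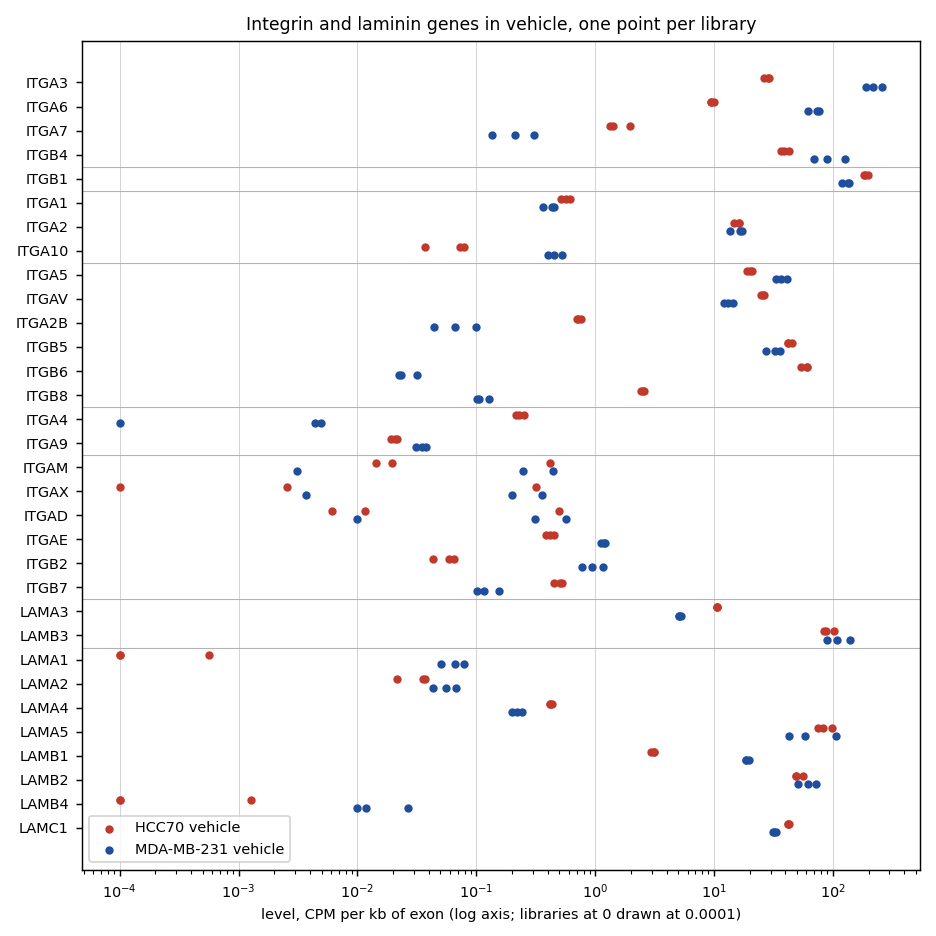
Level of the tested members reported here in the vehicle libraries as CPM per kb of exon on a log axis, with libraries at 0 drawn at 0.0001. Points are libraries, HCC70 drawn above MDA-MB-231, and lines part the roles. HCC70 points of ITGB6, ITGB8 and ITGA4 lie far to the right of the MDA-MB-231 points of the same gene. For ITGA3, ITGA6 and LAMB1 the MDA-MB-231 points lie to the right. ITGA4 is low even in HCC70, at a mean of 0.232 CPM per kb.

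Levels per kb of exon divide by the length of all annotated exons of a gene, which can exceed that of its mRNA. Orders between genes are therefore approximate. On this scale ITGB1 had the highest mean level among members in HCC70 vehicle at 189 CPM per kb. LAMB3 (91.6), LAMA5 (85.3), ITGB6 (58.3) and LAMB2 (51.3) followed. In MDA-MB-231 vehicle ITGA3 came first at 223 CPM per kb, followed by ITGB1 (130), LAMB3 (113), ITGB4 (95.1) and ITGA6 (70.6). ITGB1 and LAMB3 were thus among the top 3 in both lines, and ITGB6 stood in the top 5 of HCC70 while it was near 0 in MDA-MB-231. Some neighbours in these orders, such as LAMB3 and LAMA5 in HCC70, lie within their SDs of each other.

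Among the laminin receptors ITGA3 had 258, 277.5 and 286.5 CPM in HCC70 vehicle and 2559, 2129 and 1878 CPM in MDA-MB-231 vehicle. Its log2 fold change of HCC70 over MDA-MB-231 was -3.00 ± 0.12 (SE, n = 3 each, adjusted p = 6.63e-11 in edgeR's test). ITGA6 had 65.7, 62.1 and 61.5 CPM in HCC70 vehicle and 401, 501 and 482 CPM in MDA-MB-231 vehicle, a log2 fold change of -2.87 ± 0.08. ITGB4 was lower in HCC70 by a smaller margin, -1.28 ± 0.24. ITGA7, an alpha subunit best known from muscle, ran the other way at 2.85 ± 0.26, on 10.1 ± 2.24 CPM in HCC70 and 1.39 ± 0.55 CPM in MDA-MB-231 (SD, n = 3 each). The laminin receptor subunits thus did not move as a block between the lines. ITGB1, a beta subunit that the alpha subunits among them can share, was higher in HCC70 by 0.53 ± 0.06.

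Of the collagen receptor subunits, ITGA2 did not pass between the lines, with 129, 117 and 128 CPM in HCC70 vehicle and 109, 132 and 137 CPM in MDA-MB-231 vehicle. The libraries of the lines overlapped, and the 95% interval of the log2 fold change ran from -0.19 to 0.15. ITGA10, with 0.235, 0.495 and 0.464 CPM in HCC70 vehicle and 2.56, 3.32 and 2.86 CPM in MDA-MB-231 vehicle, was lower in HCC70, at -2.88 ± 0.20, and ITGA1 was higher, at 0.45 ± 0.09.

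Of the alpha-v group, ITGB6 and ITGB8 were far apart between the lines, and ITGAV and ITGB5 differed less. ITGB6 had 283, 282.6 and 254 CPM in HCC70 vehicle and 0.109, 0.148 and 0.105 CPM in MDA-MB-231 vehicle, where it rested on 12 to 19 counts per library. This was a log2 fold change of 11.12 ± 0.13 (SE, n = 3 each, adjusted p = 3.47e-16 in edgeR's test), the highest of the members. ITGB8 had 38.8, 37.1 and 38.9 CPM in HCC70 vehicle and 1.55, 1.95 and 1.61 CPM in MDA-MB-231 vehicle, a log2 fold change of 4.49 ± 0.10. ITGAV, the alpha subunit of both pairs, was higher in HCC70 by 0.96 ± 0.07 and ITGB5, its other epithelial partner, by 0.42 ± 0.09. ITGA2B, the alpha subunit of the platelet receptor for fibrinogen, was higher in HCC70 by 3.38 ± 0.24 with 3.89, 4.27 and 3.98 CPM in HCC70 vehicle and 0.552, 0.367 and 0.245 CPM in MDA-MB-231 vehicle, while of 3 platelet genes GP9 had no count in any library, GP1BA averaged 0.156 CPM in HCC70 vehicle and 0.313 CPM in MDA-MB-231 vehicle, and PF4 averaged at most 0.148 CPM in any group. ITGA5 was lower in HCC70, at -0.89 ± 0.09, so that the fibronectin receptor subunit ran against the alpha-v group.

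**Figure D4:**
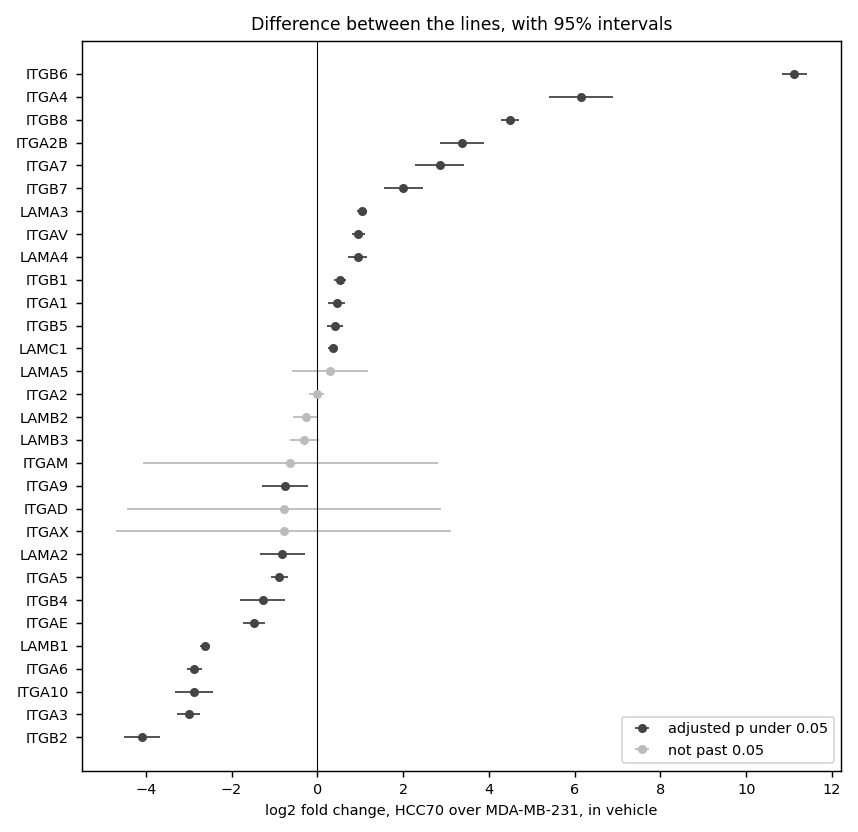
Log2 fold change of HCC70 over MDA-MB-231 in vehicle with 95% intervals, for the tested members reported here other than LAMA1 and LAMB4, which had 1 count in HCC70 vehicle. Dark points passed the test at an adjusted p of 0.05. ITGB6 stands at 11.12, and ITGAM, ITGAD and ITGAX have the widest intervals.

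Integrins known from leukocytes were low in both lines, and PTPRC, the pan-leukocyte marker, averaged at most 0.187 CPM in any group, with SPI1 at most 0.0228 CPM and CD3E at most 0.0487 CPM. CD14, a monocyte marker, went the other way in HCC70, at 42.3 CPM with DEX and 36.4 CPM in vehicle, and stood at 0.648 CPM with DEX and 0.751 CPM in vehicle in MDA-MB-231. ITGB2, the beta subunit of the leukocyte integrins, had 0.294, 0.405 and 0.447 CPM in HCC70 vehicle and 7.87, 6.46 and 5.30 CPM in MDA-MB-231 vehicle, a log2 fold change of -4.10 ± 0.20. ITGAE was lower in HCC70 too, at -1.48 ± 0.12, with 6.41% of its exon bases shared with HASPIN. ITGA4, which binds fibronectin and the vascular adhesion molecule VCAM1, had 1.82, 1.98 and 1.69 CPM in HCC70 vehicle and 0, 0.0391 and 0.035 CPM in MDA-MB-231 vehicle, where it had 9 counts in all. ITGB7 was 4.01-fold higher in HCC70, at 2.22 ± 0.17 CPM in HCC70 vehicle and 0.555 ± 0.12 CPM in MDA-MB-231 vehicle (SD, n = 3 each), and 42.1% of its exon bases overlap ZNF740, so reads of the 2 genes may not be told apart in these unstranded libraries.

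ITGAM, ITGAX and ITGAD, neighbours on chromosome 16, showed a split that followed neither line nor treatment. Library 1 of each group was high and library 3 of each group was low, while library 2 was high in HCC70 DEX and MDA-MB-231 vehicle alone. ITGAX had 93 and 64 counts in HCC70 DEX libraries 1 and 2, 270 in HCC70 vehicle library 1, 340 in MDA-MB-231 DEX library 1, and 301 and 181 in MDA-MB-231 vehicle libraries 1 and 2, while the other 6 libraries had 0 to 9. ITGAM and ITGAD were high in the same 6 libraries, and so were PYDC1 and TRIM72, which lie beside them. PYDC1 had only 4 to 22 counts in those 6 and 0 in the others, so its ratios rest on few counts. TRIM72 had 14 to 77 counts in those 6 and 0 to 4 in the others. COX6A2, another neighbour, had 11 to 35 counts in those 6 and 0 to 8 in the others. Within those 6 libraries the ratios of most of these genes varied little: PYDC1 over ITGAX was 0.0625 to 0.0667, TRIM72 over ITGAX 0.219 to 0.254, ITGAM over ITGAX 0.971 to 1.13 and ITGAD over ITGAX 0.946 to 0.99. COX6A2 over ITGAX varied more, from 0.0971 to 0.203. The ratio of exon numbers to ITGAX, taken from the transcript with most exons (31 for ITGAX, 2 for PYDC1), is 0.0645 for PYDC1, 0.226 for TRIM72, 0.0968 for COX6A2 and 0.968 for both ITGAM and ITGAD. None of the 3 integrin genes passed the test in any of the 4 comparisons, and the 95% interval of the line difference ran from -4.07 to 2.82 for ITGAM.

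**Figure D5:**
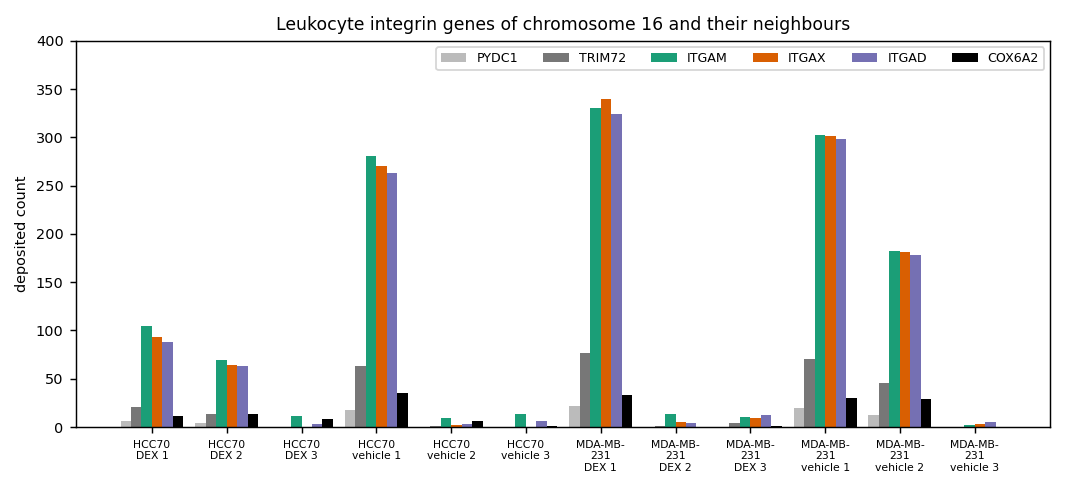
Deposited counts of ITGAM, ITGAX and ITGAD and of their chromosome 16 neighbours PYDC1, TRIM72 and COX6A2 in each of the 12 libraries. ITGAM, ITGAX, ITGAD, PYDC1 and TRIM72 are high in the same 6 libraries, spread over both lines and both treatments, and low in the other 6, and COX6A2 is less clearly split.

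Of the laminin chains, LAMA3 was higher in HCC70 and LAMB3, its partner in the hemidesmosome laminin, did not pass between the lines. LAMA3 averaged 156 ± 0.78 CPM in HCC70 vehicle and 76.0 ± 1.99 CPM in MDA-MB-231 vehicle (SD, n = 3 each). The log2 fold change was 1.04 ± 0.06 for LAMA3, and -0.30 ± 0.15 for LAMB3 (95% interval -0.64 to 0.03). With the GC and length offset LAMB3 was at -0.66 and passed (adjusted p = 1.67e-07), as it did in 5 of 19 alternatives, over which its adjusted p reached 0.314. LAMB1, the beta chain of many embryonic and vascular laminins, averaged 24.97 ± 0.89 CPM in HCC70 vehicle and 154 ± 5.42 CPM in MDA-MB-231 vehicle, a log2 fold change of -2.63 ± 0.06. LAMC1, the most widely used gamma chain, was higher in HCC70 by 0.38 ± 0.05, and LAMB2 and LAMA5 did not pass, at -0.27 ± 0.14 and 0.30 ± 0.39. With the offset these GC-rich chains were at -0.65 (adjusted p = 2.72e-09) and -0.22 (adjusted p = 0.325), so that LAMA5 turned its sign. LAMA5 passed without both libraries that stand apart, at 0.74 (adjusted p = 0.00418), and LAMB2 passed in 5 of 19 alternatives. Over the alternatives the adjusted p reached 0.258 for LAMB2 and 0.931 for LAMA5.

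The less abundant laminin chains and ITGA9 were low in both lines. LAMA4 was higher in HCC70 by 0.94 ± 0.10 and LAMA2, the chain of muscle laminin, was lower, at -0.82 ± 0.24. ITGA9, a receptor subunit for tenascin, was lower too, at -0.75 ± 0.25 on 19 to 37 counts per library, and 6.46% of its exon bases overlap ITGA9-AS1. LAMA1 had 0, 1 and 0 counts in the 3 HCC70 vehicle libraries and 149, 136 and 91 in the 3 MDA-MB-231 vehicle libraries, 1 and 376 in all, and the ratio of MDA-MB-231 to HCC70 was 360 with a 95% counting interval from 64.3 to 14300. LAMB4 had 0, 1 and 0 counts in HCC70 vehicle and 10, 24 and 8 in MDA-MB-231 vehicle, 1 and 42 in all, a ratio of 40.3 (95% counting interval 6.84 to 1630). In the annotation used, 10.3% of the exon bases of LAMA1 overlap an antisense gene. LAMA1 and LAMA2 also lay higher with DEX in MDA-MB-231 without passing, at 0.53 ± 0.19 (adjusted p = 0.0901) and 0.61 ± 0.22 (adjusted p = 0.0817).

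Genes of the same pathway were taken from 3 lists. Of 33 tested genes for integrin adaptors and focal adhesion, DEX raised 4 and lowered 3 in MDA-MB-231, and raised 3 and lowered 1 in HCC70. The shares over all tested genes were 6.65% up and 7.96% down in MDA-MB-231 and 2.55% up and 1.4% down in HCC70. NEDD9, a scaffold of focal adhesion signalling, went in opposite directions: it averaged 224 ± 7.84 CPM with DEX and 67.9 ± 3.40 CPM in vehicle in MDA-MB-231, and 2.47 ± 0.22 CPM with DEX and 3.45 ± 0.20 CPM in vehicle in HCC70 (SD, n = 3 each). The difference of these responses was -2.20 ± 0.10 (adjusted p = 1.31e-08 in edgeR's test, SE). VCL, the actin linker vinculin, rose in MDA-MB-231 by 0.78 ± 0.06, and TNS4, a tensin that binds integrin tails, rose in HCC70 by 1.37 ± 0.10. FERMT2, which activates integrins from inside the cell, rose in both lines, by 0.48 ± 0.06 in MDA-MB-231 and 0.43 ± 0.06 in HCC70. BCAR1, a scaffold related to NEDD9, fell in MDA-MB-231, with 94.6, 205 and 112.5 CPM with DEX and 469, 274 and 206 CPM in vehicle. Its highest libraries within the groups were DEX library 2 and vehicle library 1, as for LAMB3 and LAMA5. ITGB1BP1, a regulator of the beta-1 tail, rose in MDA-MB-231 by 0.47 ± 0.06, and the kinases SRC and PTK2B changed by -0.44 ± 0.12 and -0.38 ± 0.10. The SRC groups nearly touched, at 39.56, 54.33 and 44.41 CPM with DEX and 74.08, 58.95 and 54.42 CPM in vehicle. Like BCAR1, SRC was highest in DEX library 2 and vehicle library 1. KANK1, which binds talin at focal adhesions, rose in HCC70 by 0.25 ± 0.06.

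Of the 10 genes of hemidesmosomes and laminin receptors, the heparan sulfate co-receptor SDC4 rose in both lines, by 0.34 ± 0.05 in MDA-MB-231 and 0.37 ± 0.05 in HCC70. COL17A1, the collagen of hemidesmosomes, and SDC1 fell in MDA-MB-231, at -0.52 ± 0.09 and -0.37 ± 0.10, and no other gene of the list passed edgeR's test in either line. The SDC1 groups overlapped, at 75.4, 97.8 and 79.6 CPM with DEX and 126, 106 and 94.6 CPM in vehicle. Within their groups COL17A1 and SDC1 were both highest in DEX library 2 and vehicle library 1, the libraries that stand apart. In HCC70 edgeR's test had 1 gene of the list lower at an unadjusted p under 0.05, DST, at -0.29 (adjusted p = 0.0615), and the DESeq2 Wald test and limma voom each called 1 gene lower. Of 22 tested genes for basement membrane partners and integrin ligands, 3 rose and 3 fell in MDA-MB-231, again to be read against 6.65% and 7.96% of all tested genes. The matrix proteins FBLN1 (1.48 ± 0.10), THBS1 (0.76 ± 0.08) and FN1 (0.53 ± 0.11), the ligand of the ITGA5 receptor, rose, and FREM2, COL7A1 (-0.96 ± 0.22) and TNC (-0.34 ± 0.08) fell, FREM2 on 2 counts over the DEX libraries and 23 over the vehicle libraries. In HCC70 none of the 22 passed in edgeR's test, with 2 higher and 1 lower at an unadjusted p under 0.05, and the DESeq2 Wald test and limma voom each called 1 higher. The list medians with DEX were -0.04, -0.16 and -0.02 in MDA-MB-231 and 0.13, 0.17 and 0.09 in HCC70, in the order of the lists, beside -0.01 over all tested genes in both lines.

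Between the lines in vehicle, the adaptor list had 6 genes higher and 19 lower in HCC70, the hemidesmosome list 3 and 6, and the basement membrane list 7 and 10, where 39.2% of all tested genes were higher and 40% lower. TNS1, another tensin, averaged 163 ± 18.5 CPM in HCC70 and 2.12 ± 0.65 CPM in MDA-MB-231, and FYN, a kinase of integrin signalling, 0.0144 ± 0.013 CPM in HCC70 and 38.6 ± 1.14 CPM in MDA-MB-231 (SD, n = 3 each). COL17A1 was lower in HCC70, at -4.29 ± 0.11, the direction of ITGB4 and ITGA6. FBLN1, which DEX raised in MDA-MB-231, averaged 266 ± 2.94 CPM in HCC70 vehicle and 2.81 ± 0.56 CPM in MDA-MB-231 vehicle.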

How the data were processed

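RNA was measured for 37 integrin and laminin genes in 12 libraries, whose line and treatment come from the labels. The values are unscaled read counts per gene as deposited by the authors. Libraries were polyA, unstranded and paired-end, per the labels' protocols. Per the submitters' processing notes, the build is hg19 and the tools include bedtools, TopHat 1.4.1 and Cufflinks 1.3.0, with no role given. The counting tool is not given in the sources used here.

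In edgeR 4.0.16 (R 4.3.3), filterByExpr with a minimum count of 10 kept 28141 genes, TMM factors scaled the libraries, and a robust quasi-likelihood model of 4 group means was fitted to all 12 (8 residual degrees of freedom). Tests were two-sided, and a standard error is the size of the log2 fold change over the root of F. GC content, exon length and overlaps came from GENCODE release 29, on another build, for 37 of 37 members and 89.8% of tested genes. The GC and length offset removes each library's smooth trend with both. Per-library values are given for members past the test in a DEX comparison and for the 10 widest line differences, and up to 4 passing genes per direction, list and comparison are named; LAMA5, ITGB4, ITGB1 and the chromosome 16 neighbours were shown after their values were seen. One member is counted in all totals but is not reported here. Members and lists were chosen with earlier results of these data known. The scripts were tested on simulated data. Alternatives were other scalings and filters, DESeq2 1.42.0, limma 3.58.1 voom, a fit that is not robust, the groups compared alone, the replicate number as a block, the offset, and libraries left out.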

Additional observations from a re-analysis of the deposited data

Results flagged for a closer look

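The response to DEX differed between the lines for 5 members, by the test of the difference itself (HCC70 log2 fold change minus that of MDA-MB-231, edgeR's quasi-likelihood test with Benjamini-Hochberg adjustment over all tested genes). The difference was -1.86 ± 0.291 for ITGA10 (SE, adjusted p = 0.00115), with all 3 DEX libraries above all vehicle libraries in MDA-MB-231 and overlapping groups in HCC70. It was -1.05 ± 0.132 for ITGA5 (adjusted p = 0.00016), whose DEX libraries lay above all vehicle libraries in both lines. It was 0.58 ± 0.111 for ITGA2 (adjusted p = 0.00465), with all DEX libraries below all vehicle libraries in MDA-MB-231 only. It was 0.658 ± 0.164 for ITGA3 (adjusted p = 0.0232) and 0.927 ± 0.216 for LAMB3 (adjusted p = 0.0206). Both are GC-rich genes, at 59.1% and 59.4%, and the GC trend of the libraries ran in opposite directions with DEX in the lines, with a Spearman correlation of 0.48 between GC content and log2 fold change in HCC70 and -0.44 in MDA-MB-231.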

How the results depend on the processing

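In brackets after each count of members is the share of all tested genes called in the same setting. The count of members called with DEX in HCC70 was 1 as reported (3.96%). It was 0 with upper quartile scaling (4.03%), library size only (4.67%), a fit that is not robust (3.91%) and the replicate number as a block (1.71%). The DESeq2 Wald test (7.4%) and limma voom (4.83%) each gave 2. The GC and length offset gave 6 (6.94%), and that offset with the block gave 5 (5.23%). With the HCC70 libraries fitted on their own the count was 11 (19.1%), and without both libraries that stand apart it was 9 (13.5%). Leaving out 1 library at a time gave 0 in every case (1.78% to 2.82%). In MDA-MB-231 the 5 (14.6%) became 3 with that line fitted on its own (8.24%) and 8 without both libraries that stand apart (20.3%). With 1 library left out the count ran from 3 to 8 (8.45% to 22.5%). For the difference of the responses the 5 (12.1%) became 3 with no low-count filter (7%) and 3 with the replicate block (5.26%). The count became 9 without both libraries that stand apart (21.7%), and ran from 3 to 9 with 1 library left out (5.62% to 21.8%). Between the lines in vehicle the 26 calls (79.2%) ran from 26 to 28 with 1 library left out (75.5% to 77.9%). Over all genes, the 1114 calls in HCC70 became 1679 with the DESeq2 Wald test, 481 with the block, 1953 with the offset, 4828 with that line alone, 3867 without both libraries and 510 to 810 with 1 HCC70 library left out. The 4110 calls in MDA-MB-231 became 2551 with the block and 2116 with that line alone, 2424 and 2463 without DEX library 1 or 3 and 6452 without DEX library 2. The 3391 differences became 1480 with the block, 6206 without both libraries and 1614 to 6259 with 1 library left out. ITGB4 with DEX in MDA-MB-231 was 0.25 with the offset, past the test, and -0.14 without it. LAMB2 there (0.12 and -0.13) and LAMA5 between the lines (-0.22 and 0.30) also changed sign with the offset, past the test in neither case. The cause of these changes was not tested.

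The labels number the replicates in each group. Same-numbered DEX and vehicle libraries had correlations of their deviations of -0.21, 0.12 and -0.02 in HCC70 and -0.64, -0.28 and 0.38 in MDA-MB-231, and not every library correlated best with its own number. The highest correlation, 0.75, was between MDA-MB-231 DEX library 2 and vehicle library 1, whose GC trends were 0.25 and 0.68. Since the deviations carry the GC trend, this measure cannot show whether same-numbered libraries share more than a number. The chromosome 16 counts go with the number in part, since library 1 was high and library 3 low in all 4 groups. Library size alone shifted the median of all genes by -0.09 in HCC70 and -0.11 in the difference. Depth limits ITGA8, ITGA11, ITGAL and LAMC3, and folds against LAMA1 and LAMB4 in HCC70.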
